A study of Mus musculus with 4 samples.

Results

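The genes described here are 9 genes of lymphocyte trafficking, named Klf2, S1pr1, Ccr7, Cxcr4, Cxcr5, Itga4, Itgb7, Gpr183, and Foxo1. They were chosen by symbol from the 31053 genes of the authors' feature table, and all 9 were found there. The mice were wild type, and their splenic B cells were cultured and studied by scRNA-Seq. Bregs-CpG (2 samples) were purified B cells kept for 3 days with the TLR9 ligand CpG B ODN 1668. Bregs-TLR (2 samples) had the same culture and also received LPS, PMA, and ionomycin for the final 5 hours, so CpG was shared by all groups. LPS is a TLR4 ligand, PMA is a phorbol ester that activates protein kinase C, and ionomycin lets calcium into the cell. The cells were cultured outside the animal, and no migration was measured.

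The 19920 barcodes carry library endings 5, 6, 7, and 8, and no label pairs an ending with a sample. Libraries are therefore given by their number, each with its own value, and Bregs-CpG and Bregs-TLR were not compared. Cells with at least 1000 detected genes and less than 10% mitochondrial UMIs were kept, a UMI being 1 captured mRNA molecule. This left 18534 cells, between 4003 and 5621 per library, with 44842982 to 63638158 UMIs per library. Libraries 5 and 6 had medians of 8752 and 8785 UMIs per cell and of 7.22% and 7.18% mitochondrial UMIs, and libraries 7 and 8 had 10355 and 10077 UMIs and 4.61% and 4.65%. The 4 libraries shared between 1 and 8 barcodes per pair. Il10, a cytokine gene of regulatory B cells, was at 13.7, 11.1, 255, and 253 CPM (UMIs of a gene per 1000000 UMIs of the library) in libraries 5, 6, 7, and 8, and no measured level was used to assign a library.

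The cells were checked against markers of B cells and of other cell types. All 4 B cell markers (Cd79a, Cd79b, Ms4a1, and Cd22) were detected in each library, with a summed level of 6869 and 7123 CPM in libraries 5 and 6 and of 1445 and 1438 CPM in libraries 7 and 8. Each of the 4 was at least 2-fold higher in both libraries 5 and 6. Of these, Ms4a1, the gene of CD20, was at 1499, 1510, 32.0, and 37.0 CPM in libraries 5, 6, 7, and 8, with ratios of 40.5 to 47.3. It differed less than Klf2 and S1pr1, reported below, but more than the rest of the 9 genes. All but Tnfrsf17 of 7 plasma cell genes were detected in each library, and the list summed to 1614 and 1779 CPM in libraries 5 and 6 and to 390 and 339 CPM in libraries 7 and 8. Of this list, Mzb1 was higher in libraries 5 and 6, at 1441 and 1548 against 154 and 157 CPM, while Sdc1, the gene of CD138, was higher in libraries 7 and 8, at 7.45 and 6.15 against 0.201 and 0.213 CPM. Of 5 T cell markers, Cd3e and Trbc2 had no UMI, and the list summed to at most 0.788 CPM in a library. Of 5 myeloid markers, Lyz2, S100a8, and S100a9 had no UMI, with a sum of at most 2.46 CPM, and none of 3 NK cell markers was detected. Of 4 hemoglobin genes, Hba-a1 and Hba-a2 had no UMI, and the list summed to 4.59 and 4.30 CPM in libraries 5 and 6 and to 219 and 285 CPM in libraries 7 and 8, nearly all of it Hbb-bt. The mitochondrial share, the B cell markers, and Mzb1 were thus higher in libraries 5 and 6, and Hbb-bt and Sdc1 were higher in libraries 7 and 8. Their part in the results below was not tested.

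The 9 genes belong to a circuit that places lymphocytes in tissues. KLF2 is a zinc finger transcription factor of resting lymphocytes that drives S1pr1, and antigen or mitogen stimulation lowers it. FOXO1 is a forkhead factor that acts on Klf2 and Ccr7 in lymphocytes and is kept out of the nucleus by PI3K and AKT signaling. S1PR1 senses sphingosine 1-phosphate in blood and lymph and lets lymphocytes leave lymphoid organs, while chemokine receptors and integrins guide their entry and position.

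Promoter sequences were read for the genes that a RefSeq table on GRCm38.p6 held, which were 6 of the 9 (Klf2, Cxcr4, Itga4, Itgb7, Gpr183, and Foxo1). The 250 bases before the RefSeq start of 4 of these genes are shown 5′ to 3′ on the strand of the gene: Klf2, the factor itself, Itga4 and Itgb7, which encode the 2 chains of 1 integrin, and Gpr183, whose level had the opposite order between libraries. Capitals mark the core of KLF binding sites, CACCC, or its reverse complement GGGTG, and in Klf2 also the MEF2 core TAAATTTA, a motif that was added after the sequence was seen. The windows are chr8:72318812-72319061 (plus strand) for Klf2, chr2:79255176-79255425 (plus strand) for Itga4, chr15:102231936-102232185 (minus strand) for Itgb7, and chr14:121965194-121965443 (minus strand) for Gpr183.
Klf2: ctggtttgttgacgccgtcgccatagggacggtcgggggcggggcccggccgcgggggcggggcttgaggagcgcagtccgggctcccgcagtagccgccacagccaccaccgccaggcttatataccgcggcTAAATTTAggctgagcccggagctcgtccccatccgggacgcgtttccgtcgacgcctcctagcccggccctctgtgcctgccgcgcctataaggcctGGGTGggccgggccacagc
Itga4: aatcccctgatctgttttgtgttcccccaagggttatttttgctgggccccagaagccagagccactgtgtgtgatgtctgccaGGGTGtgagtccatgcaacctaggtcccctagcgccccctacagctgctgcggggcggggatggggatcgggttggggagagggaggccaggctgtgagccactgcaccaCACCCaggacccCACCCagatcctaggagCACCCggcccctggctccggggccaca
Itgb7: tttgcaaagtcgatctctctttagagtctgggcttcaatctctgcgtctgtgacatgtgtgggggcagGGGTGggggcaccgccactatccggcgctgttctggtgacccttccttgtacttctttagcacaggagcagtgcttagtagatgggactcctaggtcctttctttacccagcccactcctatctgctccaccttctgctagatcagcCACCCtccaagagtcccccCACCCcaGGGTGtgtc
Gpr183: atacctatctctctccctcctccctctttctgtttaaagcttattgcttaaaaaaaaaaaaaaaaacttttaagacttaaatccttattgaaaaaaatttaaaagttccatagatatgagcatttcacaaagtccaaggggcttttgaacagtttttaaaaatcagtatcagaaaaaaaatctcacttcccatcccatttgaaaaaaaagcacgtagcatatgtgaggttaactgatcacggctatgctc

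Itga4 and Itgb7 each had 4 matches to the KLF core, counted on both strands. Klf2 and Cxcr4 had 1 match each, and Gpr183 and Foxo1 had none. Over 32851 mouse promoters of the same length, 52.0% had at least 1 match and 2.14% had 4 or more. These promoters were not matched for GC content, whose median was 52.4%. GC content was 71.2% for Klf2, 61.2% for Cxcr4, 64% for Itga4, 56% for Itgb7 and Foxo1, and 32% for Gpr183. Its part in the number of matches was not tested. The FOXO motif GTAAACA had no match on either strand in the 6 promoters and was present in 3.17% of all promoters. The MEF2 core lay 117 to 110 bases before the Klf2 start and occurred in 0.502% of all promoters. The GENCODE gene starts earlier than the RefSeq start in Klf2, Itgb7, Gpr183, and Foxo1. The last 29 bases of the Klf2 window, 9 of the Itgb7 window, 2 of the Gpr183 window, and 1 of the Foxo1 window thus lie inside the GENCODE gene. The GGGTG of Klf2 and the last GGGTG of Itgb7 are within these bases. These matches are matches of letters, and binding was not measured.

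Klf2 (chr8:72319033-72321656, plus strand, GRCm38 with GENCODE genes) was abundant in libraries 5 and 6 and nearly missing from libraries 7 and 8. It was at 436 CPM in library 5 (95% interval 429.8 to 442, exact Poisson), 467 CPM in library 6 (461 to 473), 6.73 CPM in library 7 (6.10 to 7.39), and 8.60 CPM in library 8 (7.77 to 9.50). The intervals cover counting error only, and since libraries could not be named replicates, there was no test. The level in either of libraries 5 and 6 was between 50.7 and 69.4 times that in either of libraries 7 and 8, which placed Klf2 at rank 14 of 10457 genes by the smallest of the 4 ratios. From highest to lowest the libraries were in the order 6, 5, 8, and 7, and neighbors in this order did not overlap in their counting intervals.

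The difference was present in most single cells. A Klf2 UMI was found in 90.1% and 91.5% of cells of libraries 5 and 6 and in 6.58% and 6.87% of cells of libraries 7 and 8. After each cell was thinned to 5000 UMIs, which removes differences in depth and left out 158, 114, 233, and 157 shallower cells of libraries 5, 6, 7, and 8, the shares were 80.4%, 81.3%, 3.29%, and 3.43%. The median cell held 4 Klf2 UMIs in libraries 5 and 6 and 0 in libraries 7 and 8, and the highest counts in a cell were 43, 61, 3, and 10 UMIs. Cells with at least 3 Klf2 UMIs made up 65.7% and 69.0% of libraries 5 and 6.

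**Figure D1:**
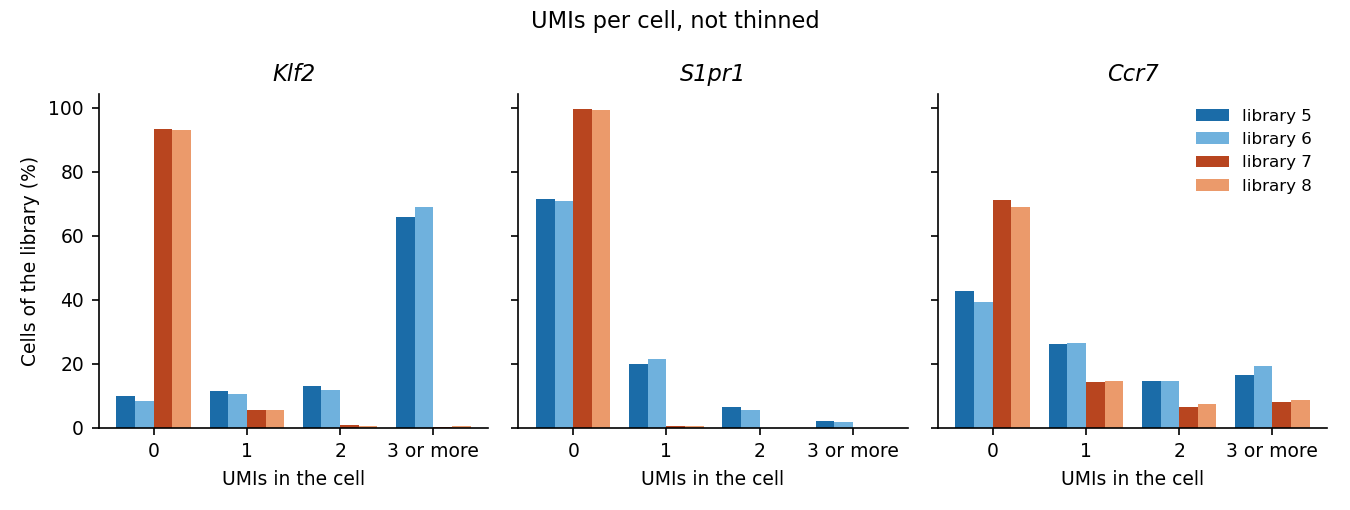
Percent of cells (y axis) of each library with 0, 1, 2, or 3 or more UMIs (x axis) of Klf2, S1pr1, and Ccr7, without thinning. The bars for 3 or more Klf2 UMIs reach 65.7% and 69.0% in libraries 5 and 6 and are close to 0 in libraries 7 and 8.

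The residual Klf2 was spread differently in libraries 7 and 8. In library 7, 74.3% of Klf2 UMIs came from cells with a single one, and 6 cells had 3 or more. In library 8, 26 cells (0.650%) had 3 or more, and they held 30.8% of the library's Klf2 UMIs. These 26 cells had Ms4a1 at 620 CPM against 32.9 CPM in the other cells of library 8 and Cd79b at 1217 against 300.3 CPM. Their Il10 was 141 CPM against 254 CPM. S1pr1 had 2 UMIs in them, which is 6.26 CPM (0.758 to 22.6), against 0.573 CPM in the other cells. Gpr183 was at 12.5 CPM in the 26 cells against 64.9 CPM in the others, on 4 UMIs. Itga4 was at 15.6 against 4.92 CPM and Itgb7 at 9.39 against 1.90 CPM, on 5 and 3 UMIs. The intervals of the log2 ratio inside over outside were wide, at 0.33 to 5.45 for S1pr1, 0.03 to 2.91 for Itga4, and 0.002 to 3.90 for Itgb7. For Ccr7, Cxcr4, Cxcr5, and Foxo1 the interval of the ratio inside over outside the 26 cells included no difference. The 6 cells of library 7 had no Ms4a1 UMI, against 32.0 CPM in its other cells, and Cd79b at 137 against 294 CPM, so that the higher B cell genes of the 26 cells were not seen in them. None of the barcodes of the 26 cells occurred in library 5 or 6. For comparison, 5.56% of the 54 cells of library 7 rich in Jchain, which encodes the joining chain made by plasma cells, had a Klf2 UMI, at a median of 11463 UMIs per cell. The share in its other cells was 6.59%. In library 8 it was 3.57% of 28 such cells, against 6.89% of the others. These Jchain-rich cells held only 3 and 1 Klf2 UMIs in libraries 7 and 8, too few to compare the shares. The part of free RNA in the single UMIs of libraries 7 and 8 was not tested.

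Foxo1 (chr3:52268336-52353221) had the same order but a smaller difference. It was at 79.9 CPM in library 5 (77.3 to 82.6), 83.5 CPM in library 6 (81.0 to 86.0), 25.8 CPM in library 7 (24.6 to 27.1), and 26.9 CPM in library 8 (25.4 to 28.5), a ratio of 2.97 to 3.24. After thinning, 31.8% and 33.2% of cells of libraries 5 and 6 had a Foxo1 UMI and 11.7% and 12.2% of those of libraries 7 and 8. The intervals of libraries 5 and 6 overlapped, as did those of 7 and 8.

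S1pr1 (chr3:115710433-115715072), the receptor for exit from lymphoid tissue, had the largest ratio of the 9 genes and rank 9 of 10457. Its level was 37.4 CPM in library 5 (35.6 to 39.2), 35.6 CPM in library 6 (34.0 to 37.3), 0.503 CPM in library 7 (0.344 to 0.710), and 0.613 CPM in library 8 (0.407 to 0.886). The ratios were 58.1 to 74.3, and libraries 7 and 8 rested on 32 and 28 UMIs, of which no cell held more than 2. The S1pr1 ratios overlapped those of Klf2 (50.7 to 69.4), so the order of these 2 genes is not settled. In cells with less than 5% mitochondrial UMIs the smallest ratio was 51.5 for S1pr1 and 52.1 for Klf2. The shares of cells with an S1pr1 UMI were 28.5%, 29.0%, 0.569%, and 0.674% in libraries 5, 6, 7, and 8, and 17.5%, 16.9%, 0.297%, and 0.312% after thinning.

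The 4 chemoattractant receptors differed from each other in their pattern. Cxcr5 (chr9:44511787-44561877), the receptor for CXCL13 that brings B cells to follicles, was at 22.9, 24.6, 5.91, and 5.58 CPM in libraries 5, 6, 7, and 8, with ratios of 3.87 to 4.41. Ccr7 (chr11:99144196-99155077), the receptor for CCL19 and CCL21 of the T cell zone, was at 121, 131, 57.7, and 62.4 CPM, with ratios of 1.94 to 2.27. Ccr7 was thus higher in libraries 5 and 6 but did not reach 2-fold for each pair of libraries. Under TMM scaling its smallest ratio was 2.11. After thinning to 5000 UMIs per cell it was 1.83, and in cells with less than 5% mitochondrial UMIs it was 1.67.

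Gpr183 (EBI2, chr14:121952551-121965195), the receptor for 7α,25-dihydroxycholesterol that draws activated B cells to the outer follicle, had the opposite order. It was at 32.1 and 33.1 CPM in libraries 5 and 6 and at 68.9 and 64.6 CPM in libraries 7 and 8, so that libraries 7 and 8 were 1.95 to 2.15 times higher. A Gpr183 UMI was found in 12.7%, 13.7%, 23.7%, and 21.1% of the thinned cells of libraries 5, 6, 7, and 8. Gpr183 was the 1 gene of the 9 that was higher in both libraries 7 and 8 than in both libraries 5 and 6. Cxcr4 (chr1:128588199-128592293), the receptor for CXCL12, was low throughout, at 5.06, 5.73, 4.57, and 5.93 CPM, and the counting interval of library 5 overlapped those of libraries 7 and 8. Its ratios of 0.853 to 1.25 lay on both sides of 1. A Cxcr4 UMI was found in 2.28%, 2.87%, 2.12%, and 2.81% of the thinned cells of libraries 5, 6, 7, and 8.

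Itga4 (chr2:79255426-79333123) and Itgb7 (chr15:102215995-102231944) encode the chains of integrin α4β7, which binds MAdCAM-1 on vessels of the gut, and both were lower in libraries 7 and 8. Itga4 was at 44.1, 48.6, 5.69, and 4.99 CPM in libraries 5, 6, 7, and 8, with ratios of 7.75 to 9.74. Itgb7 was at 14.2, 16.8, 2.11, and 1.95 CPM, with ratios of 6.75 to 8.61. Of the thinned cells of libraries 5, 6, 7, and 8, 19.0%, 21%, 2.58%, and 2.26% had an Itga4 UMI. For Itgb7 the shares were 7.38%, 8.35%, 0.909%, and 0.806%. Itgb1, which pairs with α4 to form VLA-4, was at 127, 128, 46.2, and 44.2 CPM.

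**Figure D2:**
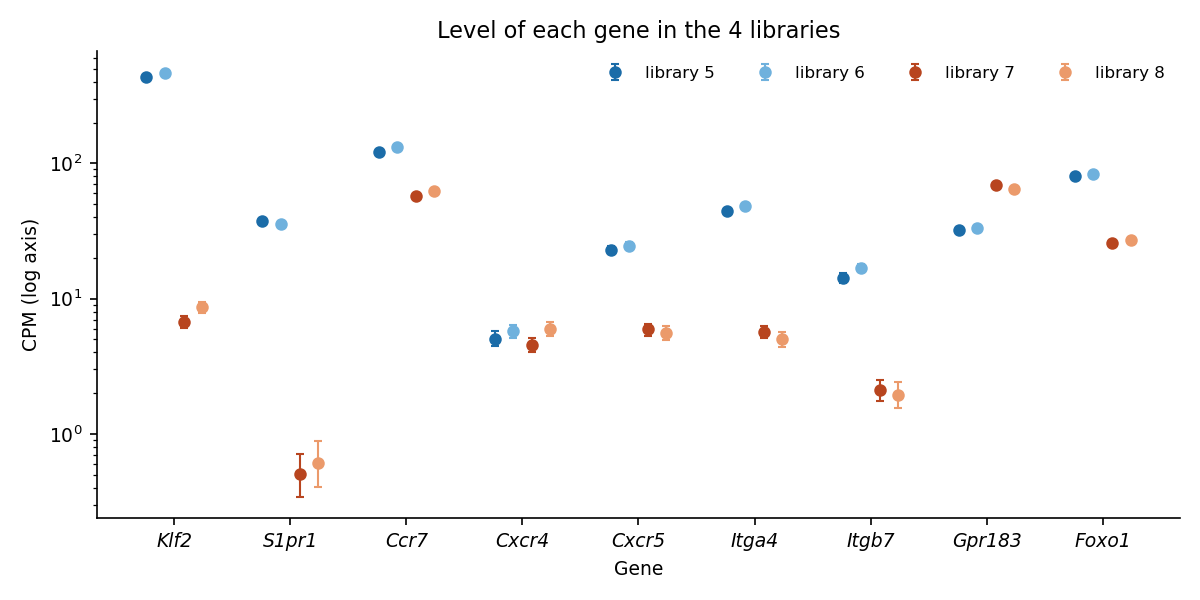
Level of each of the 9 genes (x axis) in CPM on a log axis (y axis) in libraries 5, 6, 7, and 8. Points are libraries and bars are exact Poisson 95% intervals. Libraries 5 and 6 lie above libraries 7 and 8 for 7 genes, with S1pr1 from 37.4 and 35.6 down to 0.503 and 0.613 CPM, Cxcr4 is mixed, and Gpr183 is reversed.

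Of the 9 genes, 6 (Klf2, S1pr1, Cxcr5, Itga4, Itgb7, and Foxo1) were at least 2-fold higher in both libraries 5 and 6 than in both libraries 7 and 8, and 0 were at least 2-fold lower. Among 10457 genes with at least 200 UMIs over the 4 libraries, 1361 (13.0%) were higher and 1274 (12.2%) were lower by this rule. The 9 genes and this split of the libraries were chosen with earlier results of these data known, so these counts are a description only. The median gene had log2 ratios between -0.17 and -0.07 over the 4 pairs of libraries. Within a pair the libraries were close. A 2-fold difference was found for 22 genes (0.210%) between libraries 5 and 6 and for 64 genes (0.612%) between libraries 7 and 8, and the 9 genes differed within these pairs by at most 1.30-fold. In the cells with less than 5% mitochondrial UMIs, which were 143, 207, 3545, and 2510 cells in libraries 5, 6, 7, and 8, the ratios were 52.1 to 55.9 for Klf2, 51.5 to 77.3 for S1pr1, and 2.84 to 3.04 for Foxo1. In these cells the ratios of Cxcr4 were 1.40 to 2.03, all above 1. Cxcr4 had only 227 and 296 UMIs in all kept cells of libraries 5 and 6. Its ratios in the 143 and 207 cells thus rest on few UMIs and are given without an interval. In bulk sums of this kind fewer cells with a transcript and fewer transcripts per cell cannot be told apart. The shares of cells are therefore given beside the sums for the 9 genes.

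The wider circuit was described with 7 lists. Without the 9 genes they held 84 genes, of which 65 reached 200 UMIs, and of these 24 were at least 2-fold higher in libraries 5 and 6, 4 were at least 2-fold lower, and 37 were neither. Over all genes tested, 13.0% were higher and 12.2% were lower. The lists too were chosen with earlier results of these data known. The counts of each list below include those of the 9 genes that belong to it. In the KLF family, 3 of 9 genes were higher (Klf2, Klf3, and Klf11) and none was lower. Klf3, a repressor of the same family, was at 43.0, 45.7, 4.24, and 4.07 CPM in libraries 5, 6, 7, and 8 and was named after its values were seen. Klf6, an immediate early member, was at 20.8, 21.7, 12.2, and 10.3 CPM with ratios of 1.70 to 2.10, and did not pass the threshold.

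Among FOXO and PI3K genes, 5 of 12 were higher (Foxo1, Foxo3, Pik3ip1, Pik3r1, and Inpp5d) and 1 was lower (Akt2). Pik3ip1, an inhibitor of PI3K, was at 54.5, 55.99, 7.12, and 7.33 CPM in libraries 5, 6, 7, and 8, with ratios of 7.43 to 7.87. The 5 higher genes include negative regulators of the pathway (Pik3ip1 and the phosphatase gene Inpp5d) as well as the regulatory subunit gene Pik3r1. Akt2, a kinase that phosphorylates FOXO proteins, was at 17.8, 17.9, 41.1, and 39.1 CPM. Sgk1, another FOXO kinase, was at 0.891 to 1.34 CPM and did not separate the libraries.

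In the S1P axis, 6 of 11 genes were higher (S1pr1, S1pr3, S1pr4, Spns2, Cd69, and Grk2) and none was lower. S1pr4, a further S1P receptor of lymphocytes, was at 51.7, 54.1, 7.72, and 8.54 CPM in libraries 5, 6, 7, and 8, with ratios of 6.06 to 7.02. Grk2, a kinase that desensitizes S1PR1, was at 137, 139, 53.9, and 50.7 CPM. Cd69, an activation antigen whose protein removes S1PR1 from the surface, was at 144, 136, 67.0, and 49.8 CPM, with ratios of 2.03 to 2.89. Cd69 and S1pr1 transcripts were thus both higher in libraries 5 and 6. S1pr2, which keeps germinal center B cells in place, was at 0.847, 1.10, 1.70, and 1.16 CPM, with no 2-fold difference across all pairs.

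The list of integrins and other adhesion genes had 6 of 12 genes higher (Itga4, Itgb7, Itgb1, Itgam, Selplg, and Icam2) and 1 lower (Cd44). Cd44, a hyaluronan receptor of activated lymphocytes, was at 138, 140, 355, and 337 CPM. Itgal, the α chain of LFA-1, was level across the libraries, at 40.3, 40.2, 40.9, and 40.5 CPM.

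Chemoattractant receptors had 4 of 9 genes higher (Ccr6, Cxcr5, P2ry10, and Cnr2) and none lower. Ccr6, the receptor for CCL20, was at 8.65, 7.65, 0.251, and 0.263 CPM and was named after its values were seen. Among RGS genes, which shorten signals of such receptors, 1 of 6 was higher (Rgs14) and 1 was lower (Rgs1, at 0.178, 0.329, 3.32, and 2.54 CPM). Motility genes had 5 of 15 higher (Dock8, Coro1a, Rhoh, Gnai2, and Cytip) and 1 lower (Apbb1ip). Cytip, a binder of cytohesin that limits integrin adhesion, was at 109, 118, 17.0, and 16.7 CPM. Rhoh, a small GTP-binding protein of blood cells, was at 274, 288, 57.1, and 54.7 CPM. Dock8 was at 50.1, 50.7, 12.6, and 10.5 CPM, and Gnai2, the Gαi subunit that carries chemokine receptor signals, at 552, 576, 202, and 205 CPM.

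**Figure D3:**
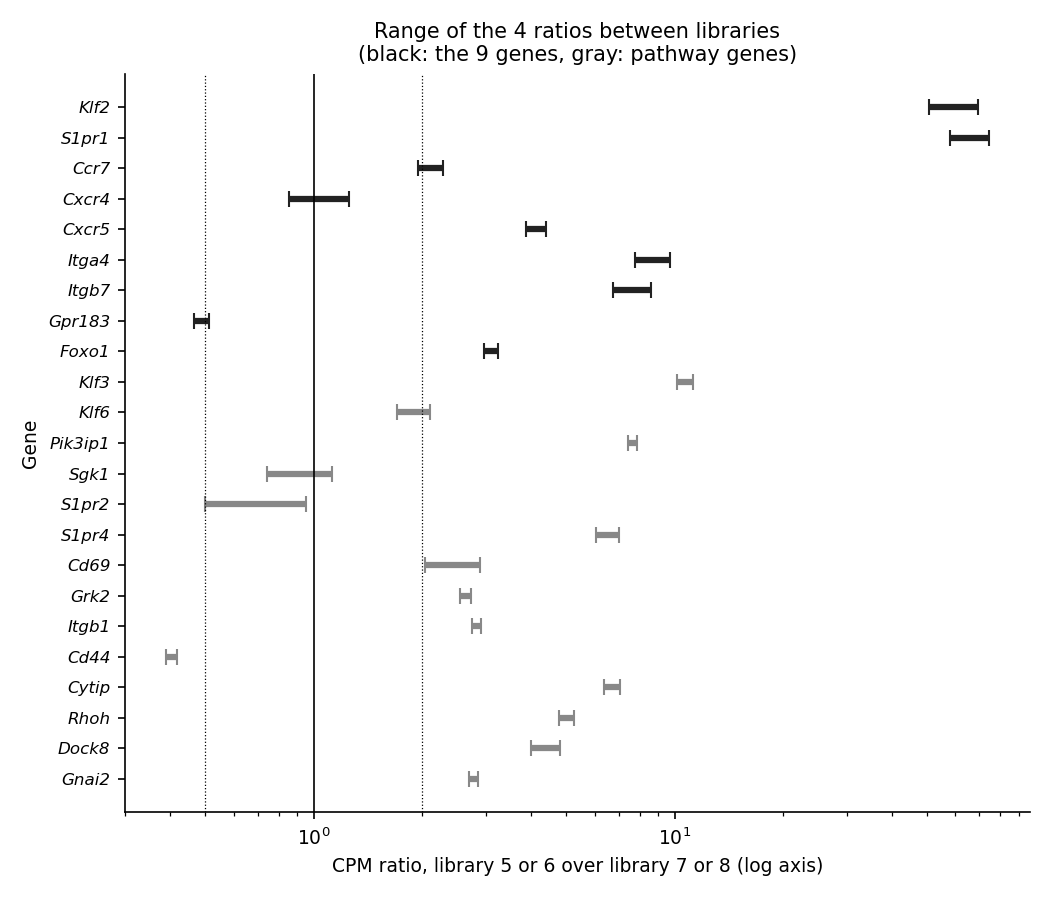
Range of the 4 CPM ratios (x axis, log scale) of library 5 or 6 over library 7 or 8 for the 9 genes (black) and 14 pathway genes (gray), 1 gene per line on the y axis. Dotted lines mark 2-fold in each direction. S1pr1 (58.1 to 74.3) and Klf2 (50.7 to 69.4) lie farthest to the right, and Cd44 and Gpr183 lie left of 1.

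Coexpression with Klf2 was examined over single cells of libraries 5 and 6, where Klf2 was detected in most cells, on 4038 and 4600 cells thinned to 5000 UMIs. Pearson's r of log2 (thinned count + 1) was small throughout. S1pr1 had r of 0.12 in library 5 and 0.11 in library 6, rank 34 of 6261 genes with a mean of at least 0.05 thinned UMIs per cell. It was the 1 of the 8 other genes with r of at least 0.1 in both libraries, against 43 of the 6261 genes (0.687%). Without dividing cells r of S1pr1 was 0.11 and 0.09, and with cells thinned to 3000 UMIs it was 0.08 and 0.06, so that 0 of the 8 genes reached 0.1 in both libraries under either setting. Cells of 1 library share their preparation, and at these counts a weak r is a description only.

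The other 7 genes had r near 0. Itgb7 had 0.04 and 0.03, Gpr183 had 0.03 and 0.05, Foxo1 had 0.02 and 0.03, Itga4 had 0.03 and 0.01, and Cxcr5 had 0.01 and -0.01 in libraries 5 and 6. Cxcr4, with a mean of 0.0240 and 0.0296 thinned UMIs per cell, was under the limit for ranking. Ccr7 was the lowest, with -0.07 and -0.06, rank 6036. In the same cells Klf2 had r of -0.13 and -0.13 with the cell's UMIs before thinning and of 0.05 and 0.06 with its mitochondrial share.

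Grouping the cells by their own Klf2 count shows the same on the scale of levels. In library 5, S1pr1 was at 23.7 CPM (19.2 to 29.0) in the 793 cells with no thinned Klf2 UMI, 42.2 CPM with 1 or 2, 46.5 CPM with 3 or 4, and 58.8 CPM (49.9 to 68.9) in the 520 cells with 5 or more. In library 6 it was at 21.8 CPM (17.6 to 26.7), 37.5 CPM, 42.3 CPM, and 57.0 CPM (49.5 to 65.3). The lowest and highest groups did not overlap in either library. Ccr7 ran the other way, from 134 to 96.9 CPM in library 5 and from 143 to 106 CPM in library 6. Foxo1 was between 74.7 and 82.0 CPM in library 5, with overlapping intervals. In library 6 Foxo1 was at 72.7 CPM (64.9 to 81.2) with no Klf2 UMI and 89.8 CPM (83.8 to 96.1) with 1 or 2. These did not overlap, and with 5 or more it was at 80.2 CPM (71.2 to 89.9). In cells with at least 3 Klf2 UMIs before thinning, Foxo1 was at 83.5 against 71.2 CPM in library 5 and 88.0 against 70.5 CPM in library 6. Itgb7 was also higher in them, at 15.3 against 11.6 CPM and 17.7 against 14.1 CPM, and Ccr7 was lower.

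Genes of the wider circuit that were higher in cells with more Klf2 included S1pr4 and Klf3. S1pr4 went from 32.0 to 79.2 CPM in library 5 and from 32.1 to 77.7 CPM in library 6 between cells with 0 and with 5 or more Klf2 UMIs, with r of 0.13 and 0.15. Klf3 went from 29.0 to 60.0 CPM and from 37.2 to 67.5 CPM. Cd69 had r of -0.10 and -0.09, and Cd44 had r of -0.09 and -0.09. Of the 44 pathway genes with enough counts, 3 had r of at least 0.1 in both libraries (Coro1a, Rhoh, and S1pr4), against 0.687% of all genes past the same limit of counts. With cells thinned to 3000 UMIs, 0 of these 3 reached 0.1 in both libraries, and without dividing cells all 3 did.

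The 5 genes most like Klf2, by the smaller r of libraries 5 and 6, were Cd79b (0.25 and 0.24), H3f3a (0.22 and 0.22), Crip1 (0.22 and 0.20), Vim (0.16 and 0.16), and Coro1a (0.16 and 0.16). Cd79b encodes a signaling chain of the B cell receptor, H3f3a histone H3.3, Crip1 a LIM domain protein, Vim vimentin, and Coro1a an actin regulator. At the other end were Srm, Hsp90ab1, Gnl3, Hspa5, and Hspd1, with r between -0.15 and -0.14. These encode spermidine synthase, chaperones, and a nucleolar protein. The 5 genes most like Klf2 had means of 1.20 to 14.9 thinned UMIs per cell in library 5, against 0.209 for S1pr1, and r over thinned counts depends on the mean.

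**Figure D4:**
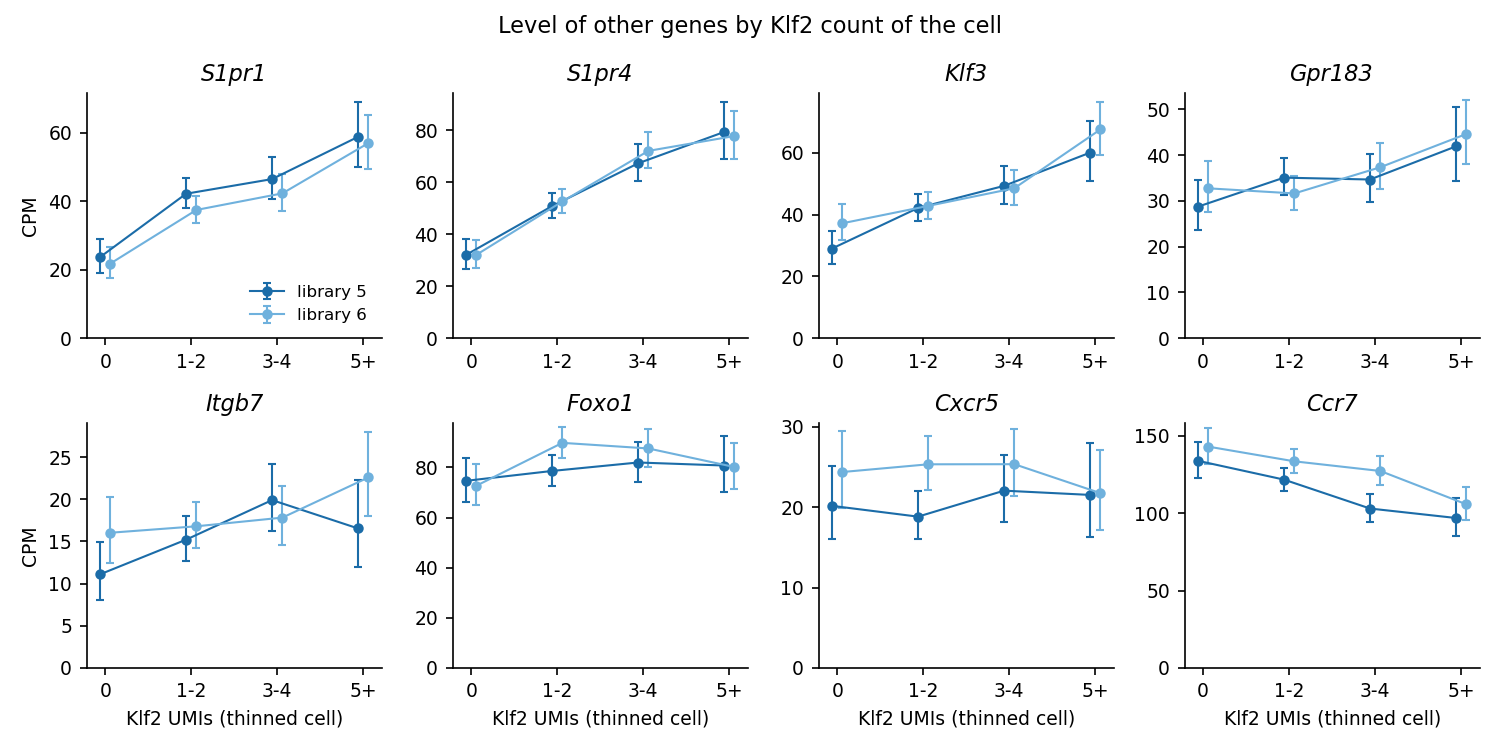
Level in CPM (y axes) of S1pr1, S1pr4, Klf3, Gpr183, Itgb7, Foxo1, Cxcr5, and Ccr7 in cells of libraries 5 and 6 grouped by their Klf2 count after thinning to 5000 UMIs (x axes). Bars are exact Poisson 95% intervals. S1pr1 is lowest with 0 Klf2 UMIs (23.7 and 21.8 CPM) and highest with 5 or more (58.8 and 57.0 CPM), and Ccr7 has the opposite slope.

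The 9 genes also varied between cell states within libraries 5 and 6. Cells with at least 3 UMIs of Ccl4, a chemokine gene of activated B cells, were 83 cells in library 5 and 70 cells in library 6. Their Klf2 was 192 CPM against 445 CPM in the other cells of library 5 and 171 against 473 CPM in library 6. S1pr1 was 14.5 against 38.2 CPM in library 5 and 16.3 against 36.1 CPM in library 6, and Itga4 25.2 against 44.8 CPM and 17.2 against 49.3 CPM. The B cell genes ran the same way, with Ms4a1 at 998 against 1517 CPM and 914 against 1524 CPM and Cd79b at 1261 against 2191 CPM and 1321 against 2245 CPM, so that lower levels were not particular to the 9 genes. Ccr7 was at 173 against 119 CPM in library 5 and 199.7 against 129.8 CPM in library 6. Cells with an Il10 UMI (314 and 351 cells) had Klf2 at 321 against 450 CPM and 360 against 480 CPM, and Ccr7 at 156 against 117 CPM and 160 against 128 CPM. Cd79b was also lower in the cells with Il10, at 1731 against 2211 CPM and 1823 against 2278 CPM. Ms4a1 was alike, at 1511 against 1497 CPM and 1518 against 1509 CPM.

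Dividing cells, with a UMI of Mki67 or Top2a, differed less. Klf2 was 405 against 451 CPM in library 5 and 434 against 484 CPM in library 6, S1pr1 29.7 against 41.0 CPM and 28.9 against 39.3 CPM, and Gpr183 25.9 against 35.0 CPM and 27.0 against 36.4 CPM. Itga4 was alike in dividing and other cells, at 44.4 and 43.9 CPM in library 5. Cells in these states had more UMIs than the others, with medians of 16597 and 14352 for cells with Ccl4, 12200 and 13075 for cells with Il10, and 12199 and 13376 for dividing cells.

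Jchain-rich cells, with at least 5 Jchain UMIs, had the most divergent receptors but were 24 and 39 cells. Klf2 was at 118 CPM (83.4 to 163) in library 5 and 173 CPM (141 to 210.0) in library 6. In the other cells it was at 438 and 470 CPM. The intervals cover counting error only, not the spread between cells. A Klf2 UMI was found in 33.3% and 28.2% of the Jchain-rich cells, against 90.5% and 92.0% of the other cells. Most Jchain-rich cells thus held none, and the summed level came from a minority of them. The B cell genes were also lower in Jchain-rich cells. Ms4a1 was at 727 against 1504 CPM and 708 against 1520 CPM, and Cd79b at 1390 against 2163 CPM and 1262 against 2237 CPM. Ccr7 was at 16.01 and 40.4 CPM, against 122 and 132 CPM in the other cells. Cxcr4, the receptor that plasma cells use to reach bone marrow, was at 32.0 CPM (15.4 to 58.9) and 30.3 CPM (17.9 to 47.9), against 4.87 and 5.45 CPM. Itga4 was at 89.7 and 90.9 CPM against 43.8 and 48.2 CPM. In libraries 7 and 8, with 54 and 28 such cells, Cxcr4 was also higher in them, at 22.4 against 4.36 CPM and 18.0 against 5.81 CPM. Itga4 was higher in them as well, at 34.3 against 5.34 CPM and 18.0 against 4.86 CPM. These levels rest on 17 and 8 UMIs of Cxcr4 and 26 and 8 UMIs of Itga4. In library 8 the interval of each was 7.78 to 35.5 CPM. Ccr7 was higher rather than lower in the Jchain-rich cells of libraries 7 and 8, at 113 against 57.1 CPM and 203 against 61.0 CPM.

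**Figure D5:**
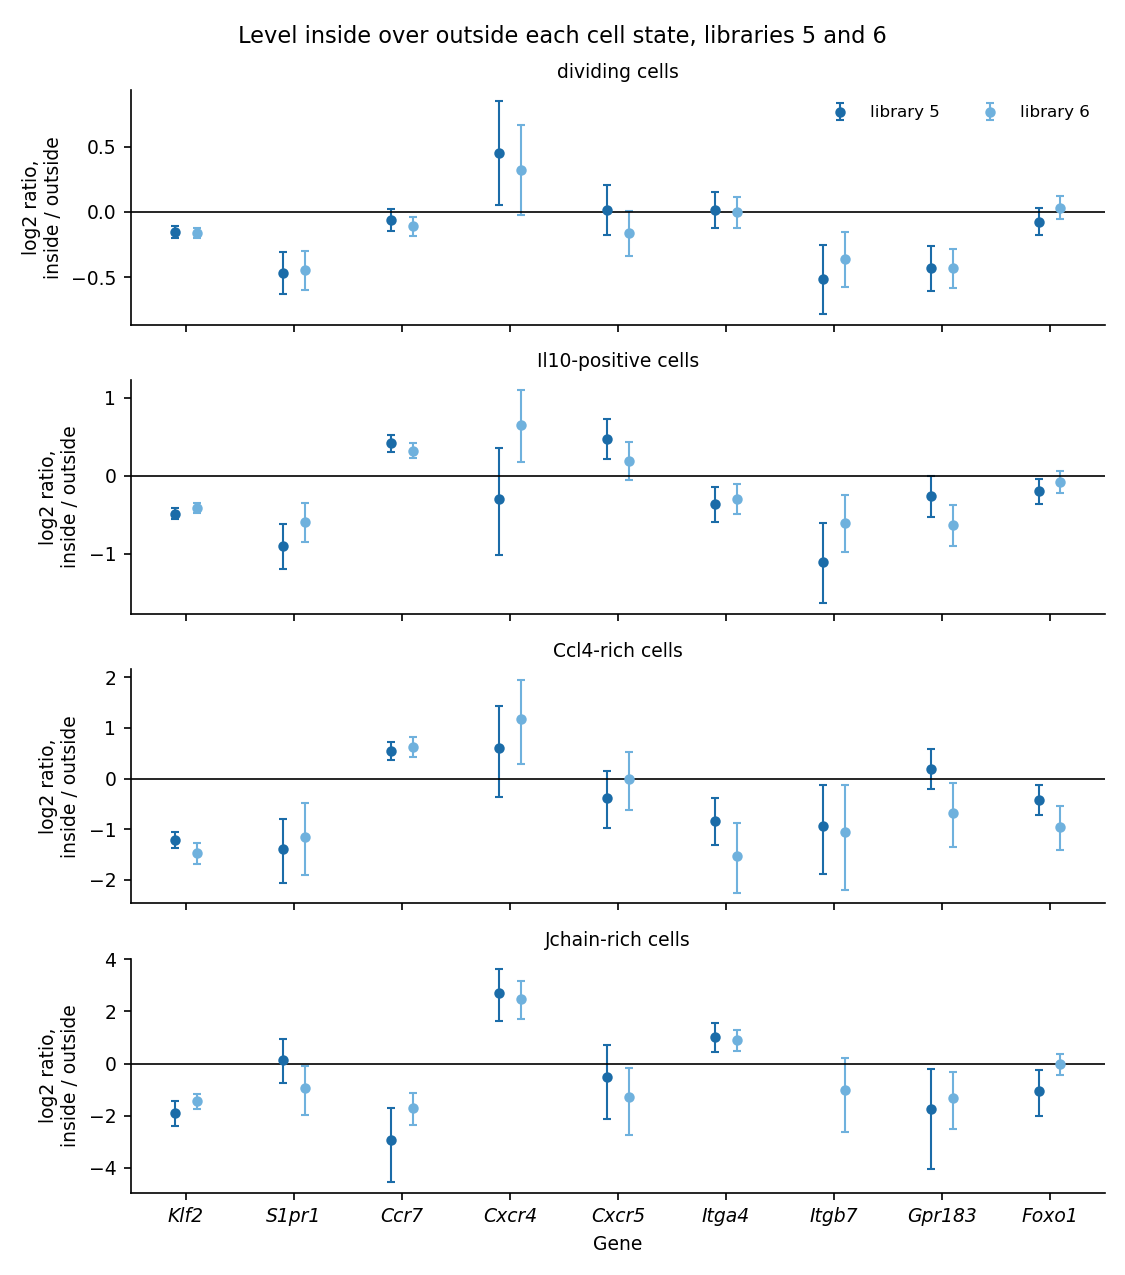
Log2 ratio of the level inside over outside each cell state (y axes) for the 9 genes (x axis) in libraries 5 and 6, for dividing, Il10-positive, Ccl4-rich, and Jchain-rich cells. Bars are exact conditional 95% intervals that cover counting error only, not the spread between cells. Itgb7 had no UMI in the Jchain-rich cells of library 5. Klf2 lies below 0 in all 4 states of both libraries, and Cxcr4 is highest in Jchain-rich cells.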

How the data were processed

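Splenic B cells of 2 Bregs-CpG and 2 Bregs-TLR samples were profiled by 10x Genomics Chromium Single Cell 3' v3. Per the submitters' processing notes and the methods, the authors used bcl2fastq and Cell Ranger (version 3.1.0) with mm10 and Ensembl 93 genes. By the methods, CellRanger aggr both combined and normalized the libraries. The UMI totals and medians given here are those of the deposited values. The deposited values are whole UMI counts, not normalized further. The last columns of the matrix were taken as the 19920 barcodes in order, and the other 16069 columns were left out. Along the used columns, the largest shift in mean expression was at the start of library 7, and the starts of libraries 6 and 8 were at percentiles 92.6 and 96.4. Doublets were not called.

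CPM was computed from summed counts, with exact Poisson, exact conditional, or Clopper-Pearson 95% intervals (SciPy, version 1.17.1). A gene was called when all 4 ratios of libraries 5 or 6 over 7 or 8 passed 2-fold. Thinning used a fixed seed. TMM factors came from edgeR (version 4.0.16) and size factors from DESeq2 (version 1.42.0) in R (version 4.3.3). No test was run. The ratio calls, thinning, and correlations were tested on simulated data. All 9 genes were named, and from each list up to 4 called genes with at least 50 CPM, plus Cd69, S1pr2, S1pr4, Sgk1, and Klf6. Klf3, Ccr6, Rgs1, Akt2, Itgal, Il10, the cell states, and the MEF2 core were added after values were seen. The genes, the lists, and the split of the libraries were chosen with earlier results of these data known. Some genes of the lists are not reported here and entered no list count or marker sum. The settings tried for Coro1a, Rhoh, and S1pr4 were chosen after seeing the data.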

Additional observations from a re-analysis of the deposited data

How the results depend on the processing

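No paired analysis was possible because the library endings of the barcodes name no sample and so carry no replicate number. With each library left out in turn, 6 to 7 of the 9 genes were at least 2-fold higher in libraries 5 and 6 and 0 to 1 were lower, Ccr7 joining without library 5 or 8 and Gpr183 without library 6 or 8. Of the 10457 genes, 1418 to 1512 were then higher and 1316 to 1467 lower. Of the 65 pathway genes, 24 to 25 were higher and 4 to 5 lower. Ccr7 also passed 2-fold under TMM, DESeq2 size factors, a denominator without mitochondrial, ribosomal protein, and immunoglobulin genes, and without dividing cells, which gave 7 genes each. TMM moved the median log2 of the smallest ratio over all genes from -0.22 to -0.08. The share of higher among called genes went from 51.7% to 59.7% with TMM, 59.2% with size factors, and 61.6% with the reduced denominator.

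At less than 5% mitochondrial UMIs, 143, 207, 3545, and 2510 cells were left in libraries 5, 6, 7, and 8, and 8912 genes reached 200 UMIs. Klf2, Cxcr5, Itga4, and Foxo1 passed, and S1pr1 and Itgb7 were under 200 UMIs. Of the pathway genes, 15 were higher. Of the 8912 genes, 748 were higher and 872 lower, so that 46.2% of called genes were higher, against 51.7% in the main setting. At 1.5-fold, 1 of the 9 genes and 10 pathway genes were lower, and 2121 and 2509 of the 10457 genes were higher and lower. With 2-fold and no minimum of UMIs these were 2548 and 2090 of the 31053 genes.

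The count of genes with r of at least 0.1 depended on the setting. Of the 8 genes other than Klf2, 0 passed when cells were thinned to 3000 UMIs or without dividing cells, where S1pr1 had r under the limit in at least 1 library. Over all genes, 8 passed at 3000 UMIs, 105 without thinning, 481 in the cells with less than 5% mitochondrial UMIs, and 225 at a limit of 0.05. The thinned cells with less than 5% mitochondrial UMIs were only 134 in library 5 and 195 in library 6. With so few cells r varies widely, so the 481 genes cannot be set against the other counts. Library 6 or library 5 alone gave 1 of the 8 genes and 63 or 55 of all genes. The order of the libraries by Klf2 was the same by the thinned share of cells and under TMM. The intervals of the thinned shares overlapped between libraries 5 and 6 and between libraries 7 and 8, so the shares do not settle the order within these pairs. The depth limits S1pr1 in libraries 7 and 8, where 32 and 28 UMIs were counted. Of the levels recomputed under alternatives, 256 stayed within the counting interval of the reported value and 104 left it. Of these, 36 came from the reduced denominator, which raises the CPM of every gene kept in it. In the cells with less than 5% mitochondrial UMIs 22 left it, at 0.619 to 1.73 times the reported level over all levels of this setting. The others were 13 without dividing cells, 12 under TMM, 11 under size factors, and 10 after thinning.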
